A study of Mus musculus with 4 samples.

Results

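The genes described here are 36 genes of the interferon response and of class I antigen presentation, found by name among the 22252 gene names counted in mouse gastrocnemius muscle. They comprise 5 genes of RNA sensing, 5 transcription factors, 14 antiviral effectors, 7 interferon-inducible GTPases and 5 genes of class I antigen presentation. All 36 names were listed in the 4 RNA-seq libraries, and 33 of them had counts above 0 in every library. The libraries came from 7-week-old male C57BL/6J mice of 4 groups, lean GRf/f, lean GRmKO, ob/ob GRf/f, and ob/ob GRmKO, and each was made from the pooled RNA of 3 mice. All 4 groups carried the floxed glucocorticoid receptor gene (Nr3c1), in which exon 3 is flanked by loxP sites. GRf/f mice served as controls with an intact receptor, GRmKO mice lacked functional receptor in myofibers through Acta1-Cre, and ob/ob mice were in addition leptin-deficient and obese. Whole muscle was sequenced, so other cells of the tissue kept their receptor and contributed RNA. With 1 library per group, no difference could be set against the variation between mice, and all folds below compare libraries, not conditions.

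Interferons are secreted when cells sense foreign nucleic acid. Type I interferons act through a transcription factor complex that contains STAT2 and IRF9 and binds the interferon-stimulated response element (ISRE), and interferon gamma acts at gamma-activated sites (GAS). The induced genes block viral replication, attack intracellular pathogens and raise the display of peptides on MHC class I, a heavy chain paired with beta-2 microglobulin (B2M). Most nucleated cells express these genes at a basal level, and skeletal muscle fibers are known for low class I display at rest. Glucocorticoids, acting through their receptor, are known to restrain inflammatory and interferon-driven transcription in immune cells.

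The RefSeq promoter windows of the members (GRCm38.p6, from 250 bases before to 50 bases after each start) were searched for an ISRE core, taken as 2 copies of GAAA with any 2 bases between them, on either strand. Of the 36 members, 28 had a window, and 17 of these (60.7%) held the core, compared with 3.44% of all 32851 promoter windows and, counted per gene as the members are, 3.99% of gene symbols. A GAS core, TTCNNNGAA with N for any base, which reads the same on either strand, was present in 8 of the 28 (28.6%), in 8.3% of all windows and in 9.55% of gene symbols. The letters of the cores can overlap, as they do in Bst2. Windows were not at hand for Dhx58, Ifi27, Iigp1, Nlrc5, Parp14, Rtp4, Tap2, and Usp18. The stretches around the matches are printed for 8 members on which the results below turn, 6 that were lower in ob/ob muscle and the pair that was higher in GRmKO muscle. Each is written 5′ to 3′ on the strand of its gene, lies upstream of the RefSeq start, and carries the ISRE matches in capitals, while GAS matches are not marked. A core on the opposite strand appears as 2 copies of TTTC.
Isg15, chr4:156200850-156200921, minus strand: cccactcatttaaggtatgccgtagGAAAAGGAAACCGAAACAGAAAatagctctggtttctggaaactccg
Ifit1, chr19:34640760-34640838, plus strand: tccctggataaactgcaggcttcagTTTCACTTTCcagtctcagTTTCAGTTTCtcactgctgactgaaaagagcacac
Ifit3, chr19:34583348-34583441, plus strand: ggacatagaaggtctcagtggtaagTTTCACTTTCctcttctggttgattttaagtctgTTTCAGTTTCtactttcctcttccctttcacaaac
Bst2, chr8:71537562-71537627, minus strand: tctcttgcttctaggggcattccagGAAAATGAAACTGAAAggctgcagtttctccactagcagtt
Gbp7, chr3:142530258-142530317, plus strand: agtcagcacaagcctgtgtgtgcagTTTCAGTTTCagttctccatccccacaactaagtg
B2m, chr2:122147523-122147582, plus strand: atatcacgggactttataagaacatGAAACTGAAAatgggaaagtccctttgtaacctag
Igtp, chr11:58199497-58199555, plus strand: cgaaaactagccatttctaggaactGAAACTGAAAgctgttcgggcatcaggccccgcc
Irgm2, chr11:58214888-58214947, plus strand: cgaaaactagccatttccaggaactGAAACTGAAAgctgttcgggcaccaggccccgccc

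Isg15 held 3 overlapping cores, with the nearest ending 57 bases before the start, whereas B2m held 1, at 130 bases. Aligned from the 5′ end, the stretches of Igtp and Irgm2 were identical at 57 of 59 bases. A match describes the letters only and is not evidence of a factor bound there. Among the members with a window, the core was present in 11 of the 17 that were lower in ob/ob muscle in both genotypes and in 6 of the other 11.

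Levels are given as CPM, the counts relative to the library total, after scaling by trimmed mean of M values (TMM), always in the order lean GRf/f, lean GRmKO, ob/ob GRf/f, and ob/ob GRmKO. The libraries held between 19897754 and 20959781 expected counts, so that 3 counts, used as the floor where a gene was listed at 0, equalled 0.139 to 0.154 TMM-scaled CPM. The 36 members together held 19844, 19692, 11594 and 8833 counts, from 0.0422% to 0.099% of a library. Nr3c1 was at 120, 62.3, 106 and 41.9 TMM-scaled CPM and thus lower in both GRmKO libraries, and Fkbp5, a target of the receptor, was at 85.6, 21.2, 110 and 28.0. These values follow the genotype labels. Genes are called higher or lower at a change of at least 1.5-fold, which is 0.58 on the log2 scale, and intervals are exact 95% binomial intervals that cover counting error only. Where a gene was listed at 0, a fold given as at least sets the floor against the other count, taken as exact. Such a bound leaves out the counting error of the other library, and the interval can end nearer to no change. Genes with a mean of at least 10 expected counts over the 4 libraries were kept, 13540 in all and the 36 members among them. Of these, the 13461 to 13518 with more than 3 counts in at least 1 library of a pair were tested against this fold.

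**Figure D1:**
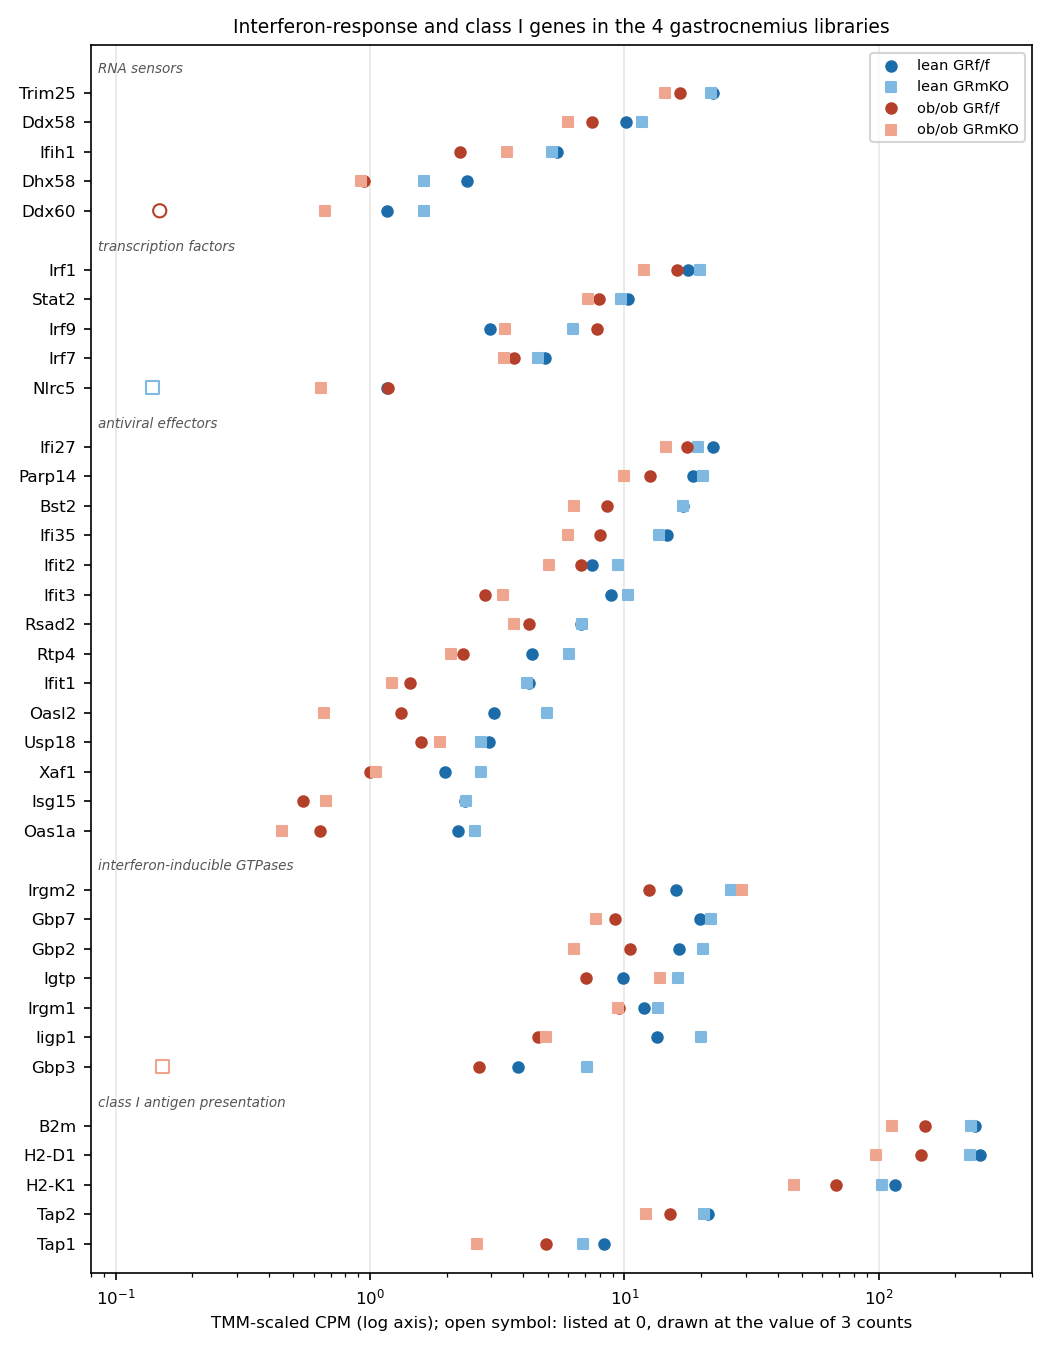
TMM-scaled CPM (log axis) of the 36 members in the 4 libraries, grouped by role, with 1 symbol per library and no error bar since each group had 1 library. Open symbols mark the 3 values listed at 0. In most rows both ob/ob symbols lie to the left of both lean symbols, and Irf9, Nlrc5, Igtp, and Irgm2 are the clearest departures from this order.

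To examine how this gene set differed between obese and lean muscle, ob/ob mice were compared with lean mice within each genotype. In GRf/f muscle, 21 of the 36 members were lower in ob/ob mice, where 12.0% of all genes tested were lower. Only Irf9 was higher, compared with 10.3% of all genes tested. In GRmKO muscle, 28 members were lower in ob/ob mice, against 15.4% of all genes tested, and 1 was higher (Nlrc5), against 11.9%. The median log2 fold of the members was -0.72 in GRf/f and -1.04 in GRmKO muscle, and the median of all genes tested was -0.001 and -0.003. The 2 comparisons share no library. In both of them, 20 of the 36 members (55.6%) were lower, compared with 5.42% of all genes tested, and 0 were higher, compared with 4.39%. A further 9 members were lower in 1 genotype only. The share of all genes tested that were lower in only 1 genotype was not taken, since the 12.0% and 15.4% include genes lower in both. A log2 fold below 0 in both genotypes, whatever its size, was found for 33 members (91.7%) and for 34.2% of all genes tested. Without TMM scaling more genes were lower in ob/ob muscle: with plain CPM, 25 members were lower and 1 higher in GRf/f muscle (15.7% and 7.52% of all genes tested), and 33 lower and 1 higher in GRmKO muscle (23.4% and 7.06%).

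**Figure D2:**
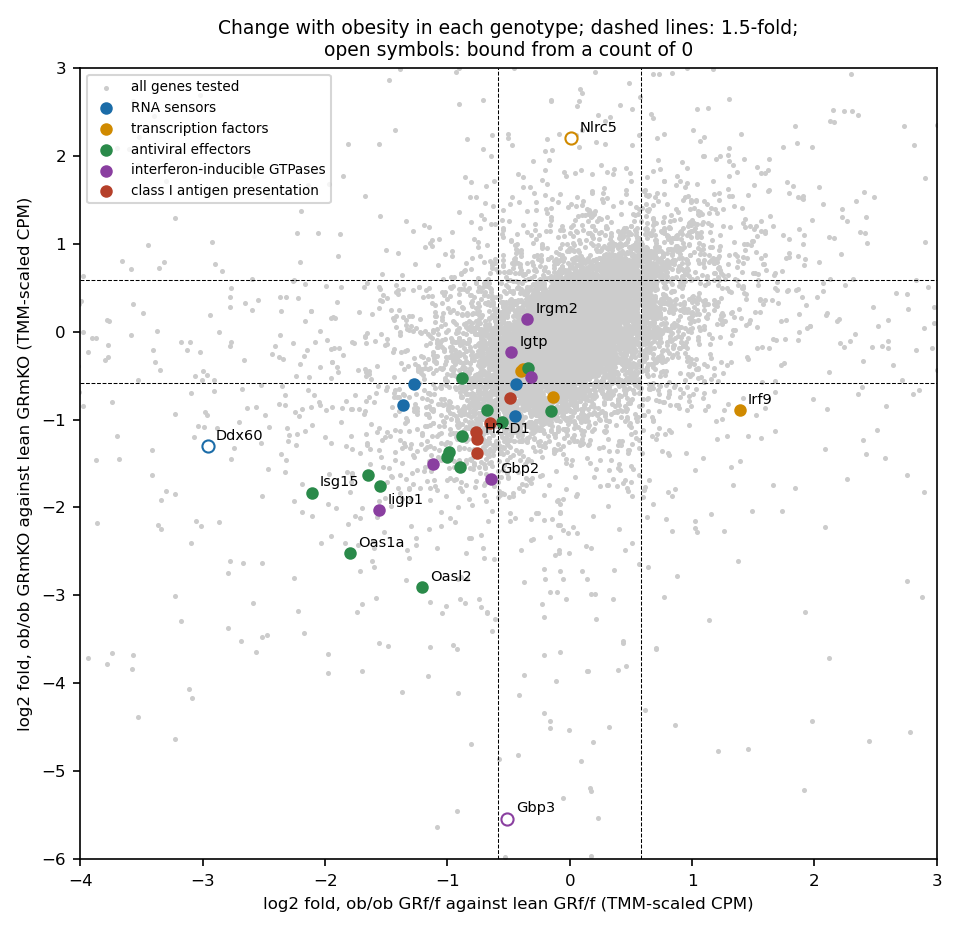
Log2 fold of ob/ob against lean muscle in GRf/f (x axis) and GRmKO mice (y axis) for all genes tested (gray) and the 36 members, coloured by role. Dashed lines mark 1.5-fold, open symbols are bounds from a count of 0, and some gray points lie outside the axes. The lower left corner holds 20 members, and Irf9 lies alone among the members at the lower right.

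Class I antigen presentation held the most abundant members. H2-D1 and H2-K1 encode class I heavy chains, B2m their light chain, and Tap1 and Tap2 the transporter that moves peptides into the endoplasmic reticulum. In lean GRf/f muscle, per kilobase of transcript, B2m was at 279, H2-D1 at 118 and H2-K1 at 71.5 TMM-scaled CPM, above every other member. Ifi27 and Bst2 followed at 22.8 and 21.5, and Ddx60 and Nlrc5 were lowest at 0.178 and 0.168. All 5 class I genes were lower in ob/ob GRmKO muscle (15.4% of all genes tested), and in ob/ob GRf/f muscle all but Tap2 were (12.0%).

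B2m was at 240, 231, 152 and 113 TMM-scaled CPM, with both lean libraries above both ob/ob libraries. This was 1.57-fold lower in ob/ob than in lean GRf/f muscle (log2 fold -0.65, interval -0.72 to -0.59) and 2.05-fold lower in GRmKO muscle (-1.04, -1.11 to -0.97). H2-D1 was at 249, 228, 147 and 97.9, and H2-K1 at 116, 103, 68.1 and 46.5. The heavy chains had the same order of libraries as B2m, being 1.70-fold lower in GRf/f muscle in either case and 2.33-fold and 2.21-fold lower in GRmKO muscle. Of the 31-base stretches of their protein-coding transcripts, 26.0% (H2-D1) and 19.7% (H2-K1) also occurred in those of other genes, so reads may have been divided among class I genes. B2m shared none.

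Tap1 was at 8.32, 6.85, 4.92 and 2.63 TMM-scaled CPM and Tap2 at 21.3, 20.5, 15.2 and 12.1. Tap1 was 1.69-fold lower in ob/ob GRf/f and 2.61-fold lower in ob/ob GRmKO muscle. Tap2 was 1.69-fold lower in ob/ob GRmKO muscle and under 1.5-fold in GRf/f muscle (log2 fold -0.49). The summed level of the 5 genes was 0.611 times the lean level in ob/ob GRf/f and 0.461 times in ob/ob GRmKO muscle.

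The antiviral effectors were the largest group. Of 14 genes, 11 were lower in ob/ob GRf/f and 12 in ob/ob GRmKO muscle, where 12.0% and 15.4% of all genes tested were. In both genotypes 10 were lower, compared with 5.42% of all genes tested, and the median log2 folds were -0.95 and -1.40. All 14 had a log2 fold below 0 in both genotypes, compared with 34.2% of all genes tested.

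Isg15 encodes a ubiquitin-like modifier that is attached to viral and host proteins. It was at 2.36, 2.38, 0.548 and 0.669 TMM-scaled CPM, the lean libraries being nearly equal and both ob/ob libraries far below them. It was 4.30-fold lower in GRf/f muscle (log2 fold -2.11, -3.20 to -1.16) and 3.55-fold lower in GRmKO muscle (-1.83, -2.84 to -0.94). Ifit1 and Ifit3, which encode proteins of the complex that binds viral RNA, also had both lean libraries above both ob/ob libraries. Ifit1 was at 4.23, 4.16, 1.44 and 1.23, or 2.94-fold and 3.39-fold lower in ob/ob muscle. Ifit3 was at 8.89, 10.3, 2.83 and 3.32, or 3.14-fold and 3.10-fold lower. Ifit3 is uncertain as a single gene, since 61.8% of its 31-base stretches also occurred elsewhere, mostly in Ifit3b. Ifit2, the neighbour of both on chromosome 19, behaved differently in GRf/f muscle. Its level was 7.48, 9.43, 6.74 and 5.04, which was under 1.5-fold in GRf/f (log2 fold -0.15) and 1.87-fold lower in GRmKO muscle.

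Oas1a and Oasl2 belong to the family of 2′-5′ oligoadenylate synthetases, which activate RNA decay. Oas1a was at 2.22, 2.58, 0.635 and 0.450 TMM-scaled CPM, 3.49-fold lower in ob/ob GRf/f and 5.73-fold lower in ob/ob GRmKO muscle, but 68.1% of its 31-base stretches were shared, mostly with Oas1g. Oasl2 shared only 0.3%. It was at 3.07, 4.95, 1.32 and 0.657, 2.32-fold lower in GRf/f (log2 fold -1.21, -1.89 to -0.52) and 7.54-fold lower in GRmKO muscle (-2.91, -3.85 to -2.06), which was the lowest ratio of any effector.

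Bst2 encodes tetherin, which holds budding virions at the cell surface. Its level was 17.0 in both lean libraries, 8.51 in ob/ob GRf/f and 6.33 in ob/ob GRmKO muscle, or 2.0-fold (log2 fold -1.0, -1.27 to -0.74) and 2.69-fold lower. Ifi35, an interferon-induced leucine zipper protein, was at 14.7, 13.7, 8.02 and 6.00. Rsad2, which encodes viperin, an enzyme that makes a chain-terminating nucleotide, was at 6.75, 6.83, 4.22 and 3.68. In all 3 of these genes both lean libraries were above both ob/ob libraries, with folds for Ifi35 of 1.84 and 2.29 and for Rsad2 of 1.60 and 1.86.

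Rtp4, a chaperone of G protein-coupled receptors with antiviral activity, was at 4.32, 6.07, 2.31 and 2.09 TMM-scaled CPM. Xaf1, an antagonist of inhibitors of apoptosis, was at 1.97, 2.74, 0.996 and 1.06. Both were lower in ob/ob muscle, by 1.87-fold and 2.90-fold for Rtp4 and by 1.98-fold and 2.58-fold for Xaf1. Usp18, the protease that removes ISG15 and dampens the receptor, was at 2.93, 2.73, 1.59 and 1.89, being 1.84-fold lower in ob/ob GRf/f muscle only (GRmKO log2 fold -0.53). Parp14, a mono-ADP-ribosyltransferase, was at 18.5, 20.3, 12.6 and 9.95 and was 2.05-fold lower in ob/ob GRmKO muscle only (GRf/f log2 fold -0.55). Ifi27, the most abundant effector on average, was at 22.3, 19.4, 17.5 and 14.6 and stayed under 1.5-fold in both genotypes (-0.34 and -0.41).

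The genes of RNA sensing were lower in ob/ob muscle in 3 of 5 cases in GRf/f (12.0% of all genes tested) and in 5 of 5 in GRmKO mice (15.4%). Ddx58 encodes RIG-I, Ifih1 encodes MDA5, Dhx58 encodes their relative LGP2, Ddx60 a helicase that promotes their signaling, and Trim25 a ubiquitin ligase that acts on RIG-I. Ifih1 was at 5.44, 5.21, 2.26 and 3.45 TMM-scaled CPM, 2.41-fold lower in ob/ob GRf/f (log2 fold -1.27, -1.77 to -0.74) and 1.51-fold lower in ob/ob GRmKO muscle. Dhx58 was at 2.42, 1.64, 0.944 and 0.920, 2.56-fold and 1.78-fold lower, the interval of the latter reaching 0.03 above 0 on the log2 scale.

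Ddx58 and Trim25 were past the fold in GRmKO muscle only. Ddx58 was at 10.2, 11.7, 7.45 and 6.02 TMM-scaled CPM, 1.94-fold lower in GRmKO, and Trim25 at 22.3, 21.8, 16.5 and 14.5, 1.51-fold lower. Ddx60 had few counts, 1.16, 1.64, 0 and 0.663 TMM-scaled CPM, and was listed at 0 in ob/ob GRf/f muscle. Against the floor it was at least 7.80-fold lower there than in lean GRf/f muscle (log2 fold -2.96, interval ending at -2.55). It was 2.47-fold lower in ob/ob than in lean GRmKO muscle.

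The interferon-inducible GTPases guard against intracellular pathogens. Guanylate-binding proteins (Gbp2, Gbp3, Gbp7) and immunity-related GTPases (Igtp, Irgm1, Irgm2, Iigp1) are the families represented. Of 7 genes, 3 were lower in ob/ob GRf/f (12.0% of all genes tested) and 4 in ob/ob GRmKO muscle (15.4%). Iigp1 was at 13.5, 20, 4.56 and 4.91 TMM-scaled CPM, 2.95-fold lower in GRf/f (log2 fold -1.56, -1.91 to -1.21) and 4.08-fold lower in GRmKO muscle (-2.03, -2.36 to -1.71). Gbp7 was at 19.8, 21.8, 9.14 and 7.70, 2.17-fold and 2.83-fold lower. Gbp2 was at 16.5, 20.3, 10.5 and 6.33, 1.56-fold lower in GRf/f and 3.21-fold lower in GRmKO muscle. For these 3 genes each lean library was above each ob/ob library.

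Gbp3 was at 3.82, 7.13 and 2.68 TMM-scaled CPM and was listed at 0 in ob/ob GRmKO muscle, from 153 counts in lean GRmKO muscle. Against the floor it was at least 46.5-fold lower there (log2 fold -5.54, interval ending at -5.22). In GRf/f muscle it was under 1.5-fold (log2 fold -0.51). The 0 concerns 1 gene name, and 5.7% of the 31-base stretches of Gbp3 were shared, most often with Gbp7. The regulators of the immunity-related GTPases changed least. Irgm1 was at 12.0, 13.6, 9.55 and 9.43, with log2 folds of -0.32 and -0.52. Igtp had log2 folds of -0.48 and -0.23. Irgm2 had -0.35 in GRf/f and 0.14 in GRmKO muscle, where plain CPM gave -0.06.

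Of the transcription factors, 0 of 5 were lower in both genotypes, compared with 5.42% of all genes tested. In a group of 5 this cannot be set apart from that share. Irf1, Irf7, Irf9, and Stat2 bind DNA, and Nlrc5 is the transactivator of class I genes. Stat2 was at 10.4, 9.73, 7.95 and 7.20 TMM-scaled CPM and Irf7, the factor that amplifies type I interferon, at 4.87, 4.59, 3.69 and 3.35. Both stayed under 1.5-fold, with log2 folds between -0.45 and -0.38. Irf1 was at 17.7, 19.9, 16.1 and 11.9, 1.67-fold lower in ob/ob GRmKO muscle and near equal in GRf/f muscle (log2 fold -0.14, -0.36 to 0.08).

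Irf9 gave the opposite direction in the 2 genotypes. Its level was 2.98, 6.29, 7.81 and 3.38 TMM-scaled CPM, so that the lean GRmKO and ob/ob GRf/f libraries were high and the remaining pair low. It was 2.62-fold higher in ob/ob than in lean GRf/f muscle (log2 fold 1.39, 0.97 to 1.84) and 1.86-fold lower in ob/ob than in lean GRmKO muscle (-0.89, -1.35 to -0.47). Opposite changes past 1.5-fold in the 2 genotypes were found in 2.27% of all genes tested. Irf9 (chr14:55603571-55610030, plus strand, 9 exons in the listed transcript) overlaps its neighbour Rnf31 on the same strand by 123 bases in GENCODE M21. Nlrc5 was at 1.17, 0, 1.17 and 0.643, and its listing at 0 in lean GRmKO muscle set the call in that genotype. Against the floor it was at least 4.59-fold higher in ob/ob mice there (log2 fold 2.2, interval starting at 1.74). In GRf/f muscle its level was the same in both libraries (log2 fold 0.01, -0.83 to 0.91).

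Of the 36 members, 27 had a lower log2 fold with obesity in GRmKO than in GRf/f muscle, where 47.8% of all genes tested did, and the median difference was -0.35 compared with 0.022. The difference was at least 0.58 in the direction of lower in GRmKO for 9 members (Irf1, Irf9, Ifit2, Oas1a, Oasl2, Rtp4, Gbp2, Gbp3, and Tap1), against 14.2% of all genes tested. It was at least 0.58 in the other direction for 3 members (Ifih1, Ddx60, and Nlrc5), against 10.7%. Since each group had 1 library, the difference between genotypes was not tested.

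GRmKO muscle was next compared with GRf/f muscle within each background, again as 1 library against 1. The part of the receptor in the muscle fibers was not tested. In lean mice, 5 of the 36 members were higher in GRmKO muscle, against 7.54% of all genes tested, and 1 was lower, against 7.55%. The higher genes were Irf9, Oasl2, Gbp3, Igtp, and Irgm2, and the lower was Nlrc5. The median log2 fold was 0.08, with -0.006 for all genes tested. In ob/ob mice, 4 members were higher, against 8.42% of all genes tested, and 6 were lower, against 10.1%. Ifih1, Ddx60, Igtp, and Irgm2 were the higher genes there, Irf9, Nlrc5, Oasl2, Gbp2, Gbp3, and Tap1 the lower ones, and the median was -0.26. With plain CPM, 6 members were higher and 1 lower in lean mice (8.5% and 6.83% of all genes tested), and 3 were higher and 8 lower in ob/ob mice (7.67% and 11.4%).

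**Figure D3:**
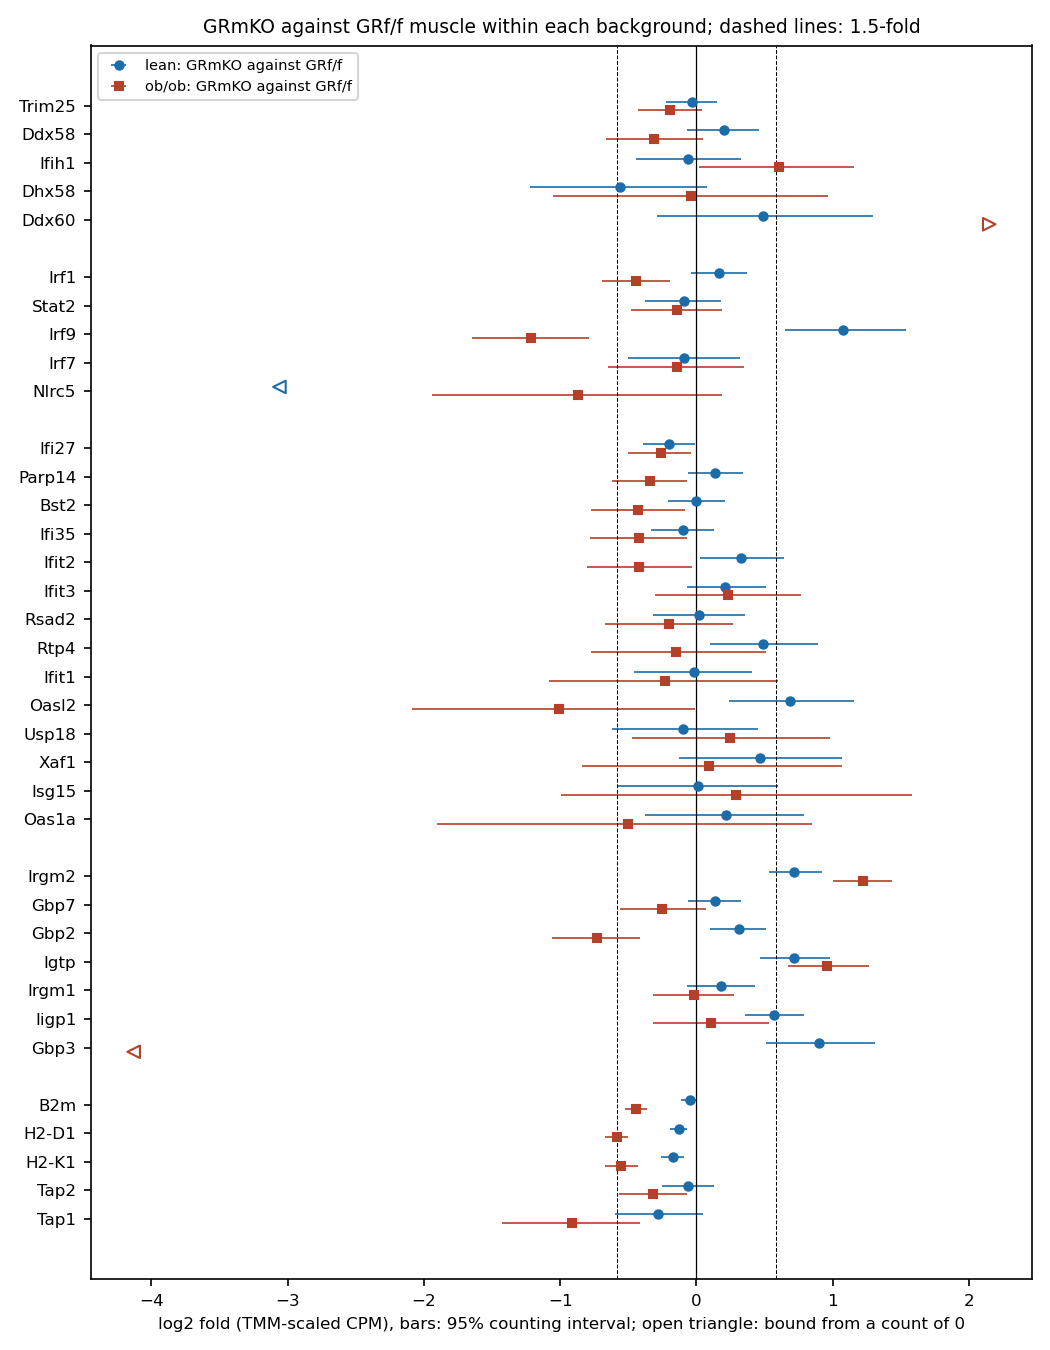
Log2 fold of GRmKO against GRf/f muscle for the 36 members in lean (blue circles) and ob/ob mice (red squares), with exact 95% counting intervals as bars, open triangles for bounds from a count of 0 and dashed lines at 1.5-fold. Igtp and Irgm2 lie to the right of the line in both backgrounds, whereas the 5 class I genes lie farther to the left in ob/ob than in lean mice.

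Igtp and Irgm2 were higher in GRmKO muscle in both backgrounds, as were 2.0% of all genes tested. Igtp encodes Irgm3, and both products control the loading of effector GTPases onto pathogen vacuoles. Igtp was at 9.84, 16.2, 7.07 and 13.8 TMM-scaled CPM, 1.65-fold higher in lean (log2 fold 0.72, 0.47 to 0.98) and 1.95-fold higher in ob/ob GRmKO muscle (0.96, 0.67 to 1.27). Irgm2 was at 16.0, 26.3, 12.5 and 29.0, 1.65-fold higher in lean (0.72, 0.53 to 0.92) and 2.33-fold higher in ob/ob GRmKO muscle (1.22, 1.0 to 1.44). For both genes each GRmKO library was above each GRf/f library.

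These genes are not independent of each other. In GENCODE M21 on GRCm38, Igtp (chr11:58199556-58207591) and Irgm2 (chr11:58199618-58222782) lie on the plus strand, and their gene spans overlap by 7974 bases. The RefSeq promoter stretch of Irgm2 printed above lies past the end of Igtp, and whether exons of Igtp and Irgm2 overlap was not examined. Of their 31-base stretches, 15.9% (Igtp) and 10.7% (Irgm2) were shared, chiefly with each other. Irgm1, the third member of the regulatory subgroup, lies elsewhere on chromosome 11 and had log2 folds of 0.18 and -0.02. Iigp1, an effector GTPase, had 0.57 in lean mice, short of the fold, and 0.11 in ob/ob mice. The 7 GTPases had log2 folds from 0.14 to 0.90 in lean GRmKO muscle, with a median of 0.57, whereas the median was -0.02 in ob/ob mice.

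Class I genes differed more between genotypes in ob/ob than in lean mice, a difference that was not tested. In lean mice the 5 log2 folds were small, from -0.28 for Tap1 to -0.05 for B2m. In ob/ob mice they lay between -0.91 and -0.32, with a median of -0.55. Tap1 was 1.87-fold lower, and H2-D1 (-0.58, -0.67 to -0.50), H2-K1 (-0.55, -0.67 to -0.43) and B2m (-0.44, -0.52 to -0.36) were short of 1.5-fold. The intervals of H2-D1 and H2-K1 reached past that limit, and their call depended on the scaling. With plain CPM both were lower by more than 1.5-fold, H2-D1 at 141 in ob/ob GRf/f and 91.3 in ob/ob GRmKO muscle and H2-K1 at 65.3 and 43.4. The summed level of the 5 genes in GRmKO muscle was 0.929 times the GRf/f level in lean and 0.702 times in ob/ob mice. Nlrc5 was the member lower in GRmKO muscle in both backgrounds, as were 2.24% of all genes tested. In lean mice, where GRmKO muscle had it listed at 0, it was at least 8.33-fold lower (log2 fold -3.06, interval ending at -2.64). In ob/ob mice it was 1.83-fold lower, with an interval that included no change (-1.94 to 0.19).

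Several members differed between genotypes in 1 background. Gbp2 was 1.66-fold lower in ob/ob GRmKO muscle (log2 fold -0.73, -1.06 to -0.41) and had a log2 fold of 0.31 in lean mice. Ifih1 was 1.53-fold higher in ob/ob GRmKO muscle, and Ddx60 was at least 4.45-fold higher against a listing at 0 (log2 fold 2.15, interval starting at 1.65). Irf9, Oasl2, and Gbp3 were higher in lean GRmKO muscle, by 2.11-fold, 1.61-fold and 1.87-fold. They were lower in ob/ob GRmKO muscle, by 2.31-fold, 2.01-fold and at least 17.5-fold (log2 interval ending at -3.78 for Gbp3). Such opposite changes past 1.5-fold were found in 2.69% of all genes tested. The remaining antiviral effectors had log2 folds between -0.20 and 0.49 in lean mice and between -0.50 and 0.29 in ob/ob mice, short of the fold throughout.

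The other genes of the pathway were taken from lists of 106 genes, of which 88 passed the filter on low counts. Among these, 38 were lower in ob/ob GRf/f muscle (12.0% of all genes tested) and 50 in ob/ob GRmKO muscle (15.4%), and 2 and 0 were higher (10.3% and 11.9%). In both genotypes 33 (37.5%) were lower, compared with 5.42% of all genes tested. All 10 interferon ligands on the list were listed at 0 in all 4 libraries. A count of 0 allows up to 3 counts, at most 0.154 TMM-scaled CPM.

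**Figure D4:**
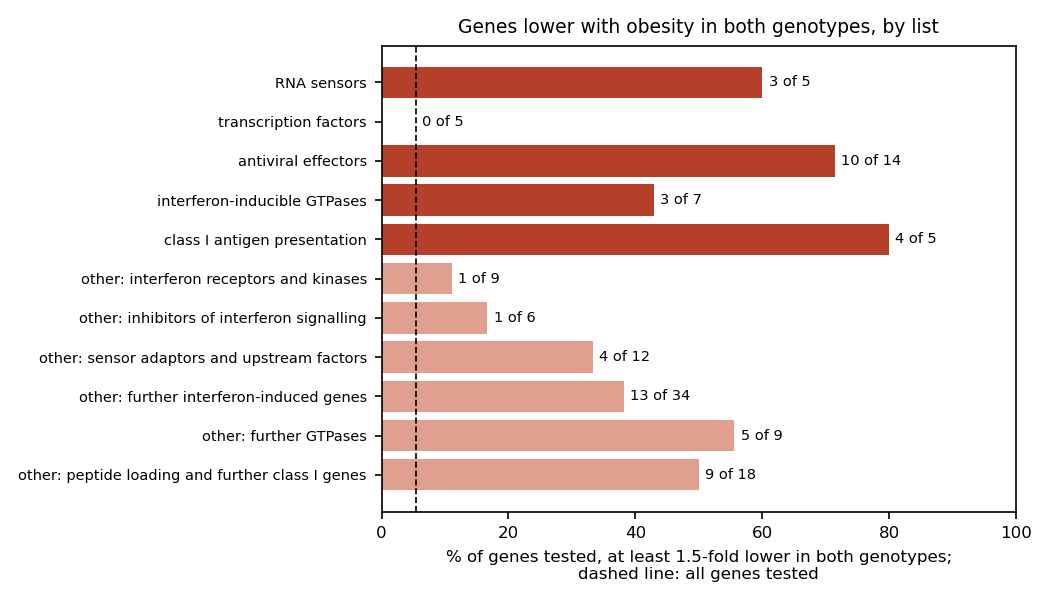
Share of the tested genes of each list that were at least 1.5-fold lower in ob/ob muscle in both genotypes, for the 5 groups of members (dark bars) and the 6 lists of other pathway genes (light bars), with counts beside the bars. The dashed line marks 5.42%, the share of all genes tested. The class I and antiviral effector bars are the longest, and the transcription factors have 0 of 5.

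Of the interferon receptors and kinases, 1 of 9 was lower in both genotypes, compared with 5.42% of all genes tested. The gene was Ifngr1, the binding chain of the interferon gamma receptor, at 84.2, 76.3, 53.7 and 47.5 TMM-scaled CPM. Ifnar2, a chain of the type I receptor, was at 13.4, 11.9, 8.13 and 8.47, lower in ob/ob GRf/f muscle (log2 fold -0.72). Of the inhibitors, 1 of 6 was lower in both, Ptpn6, a phosphatase found mainly in blood cells, at 5.69, 7.24, 2.83 and 2.24. In lists as short as these 2, 1 gene cannot be set apart from the share of all genes tested. Socs1 (2.27, 3.55, 2.53 and 2.45) was higher in lean GRmKO muscle and Socs3 (11.2, 14.8, 11.5 and 19.2) in ob/ob GRmKO muscle.

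Of the sensor adaptors and upstream factors, 4 of 12 were lower in both genotypes, compared with 5.42% of all genes tested. Irf5, a factor of macrophages and B cells, was at 8.87, 12.4, 3.39 and 4.01 TMM-scaled CPM, and Tlr7, a sensor of single-stranded RNA, at 5.07, 5.14, 2.97 and 3.42. Tlr3, a sensor of double-stranded RNA, was at 5.77, 4.45, 0 and 2.67, and Irf3 at 9.01, 8.21, 5.88 and 9.80. The listing of Tlr3 at 0 in ob/ob GRf/f muscle is the same library in which Ddx60 was listed at 0. Irf3 was lower in ob/ob GRf/f muscle only.

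Of the further interferon-induced genes, 13 of 34 were lower in both genotypes (5.42% of all genes tested), and the medians were -0.55 and -0.80. Ifi205 was at 48.1, 28.1, 16.3 and 11.0 TMM-scaled CPM, and Sp100, a nuclear body protein, at 11.4, 11.5, 4.67 and 4.36. Slfn2 was at 8.40, 6.96, 3.53 and 2.71, and Uba7, the enzyme that activates ISG15, at 6.89, 5.94, 3.44 and 2.48. In these 4 genes each lean library was above each ob/ob library.

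Of the further GTPases, 5 of 9 were lower in both genotypes, compared with 5.42% of all genes tested. Tgtp1 was at 4.12, 5.96, 1.35 and 1.15 TMM-scaled CPM and Tgtp2, its near-identical neighbour, at 5.08, 6.57, 2.82 and 1.15. Gbp6 was at 8.89, 4.59, 11.7 and 1.94, and Gbp10 at 5.86, 2.20, 10.9 and 1.93. Both were lower in GRmKO than in GRf/f muscle in either background, as were 2.24% of all genes tested, with log2 folds of -0.95 and -2.60 for Gbp6 and -1.41 and -2.50 for Gbp10. Ifi47, named after its values were seen, was higher in GRmKO muscle in either background, as were 2.0% of all genes tested, at 0.594, 2.57, 0 and 1.38 (log2 folds 2.11 and, from a listing at 0, at least 3.21). Near-identical genes of these families may exchange reads.

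Of the peptide-loading and further class I genes, 9 of 18 were lower in both genotypes (5.42% of all genes tested). A log2 fold below 0 in both genotypes, whatever its size, was found for 14 of the 18, compared with 34.2% of all genes tested. Psmb8 (6.18, 7.12, 2.87 and 2.21 TMM-scaled CPM) and Psmb9 (4.01, 4.59, 1.79 and 1.41) encode subunits of the immunoproteasome. H2-Q6 (4.63, 4.15, 2.08 and 0.877) and H2-M3 (3.30, 4.34, 2.04 and 1.48) encode nonclassical heavy chains. All 4 genes had both lean libraries above both ob/ob libraries.

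Markers of the cell types in whole muscle were summed beside the members, since fewer cells of a type and less RNA per cell cannot be told apart in bulk tissue. The muscle fiber markers (Ckm, Acta1, Myh4, Myh1, Tnnt3, Pvalb) ranged from 89298 to 120967 summed TMM-scaled CPM, the highest of all marker lists, and were 1.11 and 1.35 times the lean level in ob/ob GRf/f and GRmKO muscle. They did not move together. Their log2 folds ranged from -0.29 to 0.91 in GRf/f muscle, 3 of 6 below 0, and from -0.12 to 1.07 in GRmKO muscle, 2 of 6 below 0. All 36 members together were 0.626 and 0.491 times the lean level. This sum mainly follows class I, whose 5 genes held 634 of the 921 summed TMM-scaled CPM in lean GRf/f muscle. The 6 macrophage markers were 0.725 and 0.434 times (2 of 6 lower in GRf/f, 6 of 6 in GRmKO), from 203 to 468 summed TMM-scaled CPM. The 5 class II genes, which mark antigen-presenting cells, were 0.271 and 0.205 times, all 5 lower in both genotypes, at 402, 529, 109 and 109. The 3 pan-leukocyte markers were 0.774 and 0.470 times, with 2 of 3 and 3 of 3 lower.

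**Figure D5:**
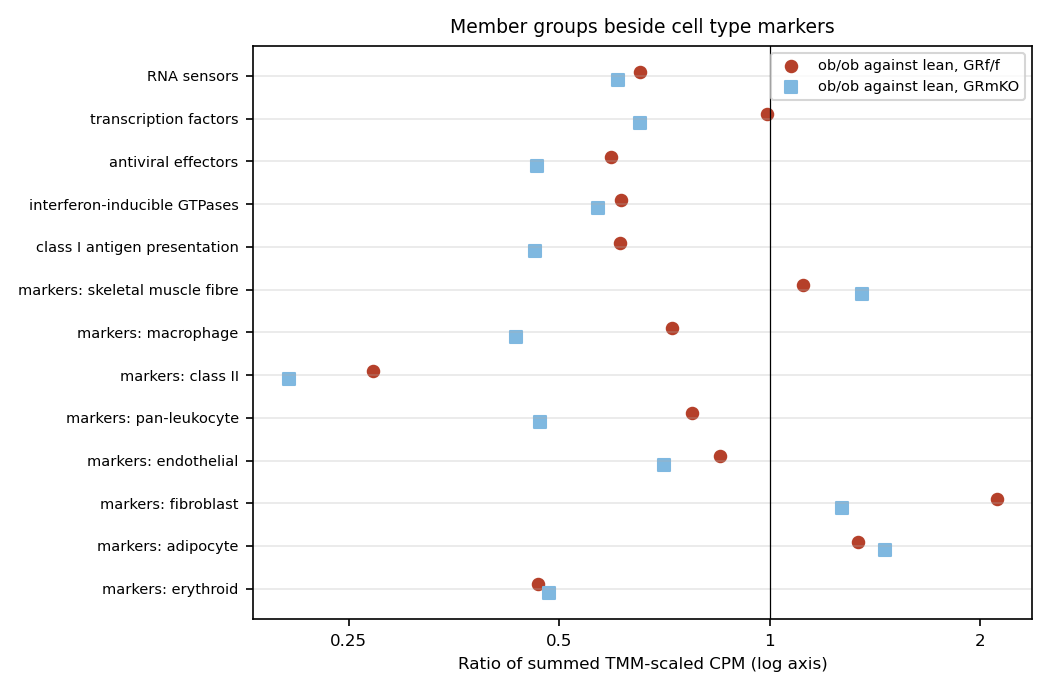
Ratio of summed TMM-scaled CPM in ob/ob over lean muscle (log axis) in GRf/f (red circles) and GRmKO mice (blue squares) for the 5 groups of members and 8 lists of cell type markers. The line marks a ratio of 1. In GRmKO muscle the macrophage and pan-leukocyte ratios are near those of the antiviral effectors and class I genes and below those of the other groups of members. In GRf/f muscle they are nearer to 1 than those of most groups of members. The class II ratios are lower than those of any group of members.

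The 5 endothelial markers were 0.849 and 0.706 times the lean level, with 0 and 1 of 5 lower, and the 3 erythroid markers 0.466 and 0.484 times. Fibroblast markers summed to 2.11 and 1.27 times, with Col1a1 higher in both genotypes, while Dcn and Pdgfra were under the fold in GRf/f muscle (log2 folds -0.39 and 0.20) and lower in ob/ob GRmKO muscle (-0.88 and -0.65). Adipocyte markers summed to 1.34 and 1.46 times, with Lep alone past the fold (log2 folds 2.41 and 3.04). Adipoq (0.09 and 0.08) was near equal and Plin1 (-0.42 and -0.28) below the lean level, so the rise of the sum came from Lep. T and NK cell markers were near the floor: Cd3e was at 0 to 0.153 TMM-scaled CPM, and 1 of 6 T and NK cell markers (Cd4) passed the filter on low counts. Of the 3 plasmacytoid dendritic cell markers, Siglech was at 1.95, 0, 0 and 0.595 TMM-scaled CPM, while Tcf4 was at 73.3, 81.0, 65.7 and 55.5. Bcl11a did not pass the filter, nor did any of the 3 B cell markers. The part of these cells in the differences of the members was not tested. Between genotypes, the macrophage markers were 1.2 times the GRf/f level in lean GRmKO and 0.748 times in ob/ob GRmKO muscle, the pan-leukocyte markers 1.32 and 0.803 times, the class II genes 1.32 and 0.999 times, the fibroblast markers 1.0 and 0.601 times, the adipocyte markers 0.543 and 0.592 times, and the members 0.999 and 0.784 times. Among the members, class I genes were at 0.929 and 0.702 times, the GTPases at 1.37 and 1.27 times, and the other groups in between.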

How the data were processed

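RNA-seq of gastrocnemius muscle from 4 groups was used, 1 library per group. The authors pooled RNA of 3 mice and sequenced paired-end reads of 100 bp on a DNBSEQ-G400 sequencer. Salmon 1.2.1 estimated the abundance of GENCODE protein-coding transcripts, and tximport (lengthScaledTPM, R 3.5.0) gave gene values. Gene names came from biomaRt, and the largest of duplicated names was kept. The deposited values are expected counts per gene, not normalized between libraries; the labels give the build as mm10. Shared sequence can therefore move estimated reads between near-identical genes.

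Counts were rounded for scaling factors (edgeR 4.0.16 TMM; DESeq2 1.42.0 size factors as an alternative, R 4.3.3) and for intervals (scipy 1.17.1). Genes with a mean of at least 10 counts were kept. A count of 0 was replaced by 3 to give a bound that takes the other count as exact, and no fold was given where both counts were at or below 3. No test was run, since no group had replicates; a fit with additive obesity and genotype terms, whose only residual would be their interaction, was not made. A fixed 1.5-fold change replaced the authors' NOISeq-sim calls. Names, exons, overlaps and 31-base sharing were from GENCODE M21, promoters from RefSeq. The scripts were tested on simulated data.

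Members and lists were chosen with earlier results of these data known. Each member was assigned to a role; members past the fold in any comparison and the 2 most abundant per role are given in every library, as are, of each other list, up to 4 genes with the largest change and at least 50 mean counts. Some genes that met these rules are not reported here. Alternatives were other scalings, filters, folds, 0.5 added counts, and calls that also required the counting interval to exclude no change.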

Additional observations from a re-analysis of the deposited data

Results flagged for a closer look

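In 3 members a 1.5-fold change had opposite directions in the groups compared. Such opposite changes were found in 2.27% (obesity) and 2.69% (genotype) of all genes tested. None of these differences was tested, as each group had 1 library.

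For Irf9, the log2 fold with obesity was 1.39 in GRf/f and -0.89 in GRmKO muscle, a difference of -2.29. The same 4 libraries give its log2 fold in GRmKO against GRf/f muscle as 1.08 in lean and -1.21 in ob/ob mice, also a difference of -2.29. For Oasl2, the log2 fold in GRmKO against GRf/f muscle was 0.69 in lean and -1.01 in ob/ob mice, a difference of -1.70. For Gbp3 it was 0.90 in lean mice and at most -4.13 in ob/ob mice, where the gene was listed at 0, a difference of at least 5.03 on the log2 scale downward (-5.03). Both bounds take the other counts as exact.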

How the results depend on the processing

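No paired analysis was possible because each group had 1 library, and no library could be left out for the same reason. Of the counts and medians over all members, 130 values under 12 alternative settings stayed near the main value and 14 did not. A 2-fold limit gave 11 members lower with obesity in GRf/f muscle (5.29% of all genes tested), 1 higher in lean GRmKO muscle (3.31%), and 2 higher and 3 lower in ob/ob GRmKO muscle (3.9% and 4.15%). A lower limit, of 0.32 on the log2 scale, gave 32 members lower with obesity in GRf/f muscle (22.8%), 10 higher and 2 lower in lean GRmKO muscle (15.7% and 14.9%), and 15 lower in ob/ob GRmKO muscle (20.8%). Requiring counts above 0 in all 4 libraries, or a mean of at least 50 counts, left 0 members higher with obesity in GRmKO muscle and 0 lower in lean GRmKO muscle, since Nlrc5 was removed. Members were also restricted to the 29 with under 10% of 31-base stretches shared, an alternative chosen after seeing the data. This left 3 higher in lean (7.54% of all genes tested) and 2 higher in ob/ob GRmKO muscle (8.42%), without Igtp and Irgm2. For single members, 708 values were near the main one and 12 moved, all in B2m, H2-K1, H2-D1, and Irgm2 under plain CPM or when the 50 genes with most counts were left out of the library size, and 0 called values changed sign.

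Plain CPM moved the median of all genes tested by -0.11 (obesity in GRf/f muscle) and -0.21 (in GRmKO muscle), with 25 and 33 members lower against 15.7% and 23.4% of all genes tested. A scaling moves all genes of a comparison by the same amount, so the members' median relative to all genes, -0.72 and -1.03, does not depend on it. Depth limits the genes of few counts most: in the rarest members the counting intervals span over 2 log2 units, and listings at 0 of Ddx60, Nlrc5, and Gbp3 rest on 1 library each.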
